A study of Mus musculus with 11 samples.

Results

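Monocytes that leave the blood and the macrophages they become were followed in injured mouse cortex through 10 genes: Lyz1, Lyz2, Ccr2, Ms4a7, Clec4n, Mrc1, Cd163, Msr1, F13a1 and Arg1. They were found on the arrays as the 12 probes whose transcript identifier belongs to one of the 10 symbols in the RefSeq gene table. Of these genes 9 passed the filter on dim probes and were tested among 26082 features, and Cd163 did not pass.

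Lesions of the cortex draw monocytes from the blood through the receptor Ccr2, and in the tissue these cells turn into macrophages that clear debris. The intact brain holds its own macrophages, the microglia of the parenchyma and the border-associated macrophages of meninges and vessels. Lysozyme, the mannose receptor Mrc1, Ms4a7 and F13a1 are also made by border-associated macrophages, so these do not mark blood-derived cells alone. Whether the other genes do in this tissue was not tested.

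The study measured RNA of the right cortical hemisphere from 22 mice on 11 Agilent arrays read in 2 colours, each array holding RNA of 1 mouse in Cy5 and of another in Cy3. Cryolesion was made by 30 s of dry ice, and tissue was taken 3 days later, from mice aged 5 to 7 months on a C57/Bl6J background. The 6 TC mice were lesioned GFA2-tTa/TetO-VP16-CREB mice, which carry the constitutively active transcription factor VP16-CREB under a tetracycline-controlled promoter, with the transactivator driven by the astrocyte promoter GFA2. The 5 WTC mice were lesioned wild-type mice, the 5 T mice were GFA2-tTa/TetO-VP16-CREB mice without a lesion, and the 6 WT mice were wild-type mice without a lesion. The transgene is thus driven from astrocytes, not from monocytes or macrophages.

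Labels and slides limit what follows. Array titles set the groups, but another label field names TC113 and TC124 as T and T132 as TC. The arrays lay on 2 slides: slide 1 held all 6 WT mice, and 5 of the 6 TC mice were on slide 2. Each mouse was hybridised once, in 1 dye, so mouse, array and dye cannot be told apart for a single level. Between 56.6% and 65.3% of probes were well above background per channel, and no spot of the 12 probes was saturated. The number of mice limits the precision of each comparison, and the labels do not say whether mice were littermates.

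All 9 tested genes were higher in every WTC mouse than in every WT mouse, as were 7.1% of 25988 features. Of the 9 genes, 6 were well above background in all 22 channels. The others, Ccr2, Msr1 and Arg1, passed the filter through the lesioned mice, so that the filter itself favoured a difference. A level below is the log2 intensity of a mouse's channel after background correction and normalization, and levels of different probes are not comparable. That correction added an offset of 50, which alone is 5.64 on the log2 scale. A step of 1 is thus close to a doubling of the signal for bright probes only. Near the floor it is more than a doubling, so differences from dim signal, as of Ccr2, Msr1 and Arg1 in intact mice, are compressed. For each of the 9 genes the mean level was highest in WTC mice, then in TC mice. The means of TC and WTC mice lay within their spread of each other, and so did those of T and WT mice.

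**Figure D1:**
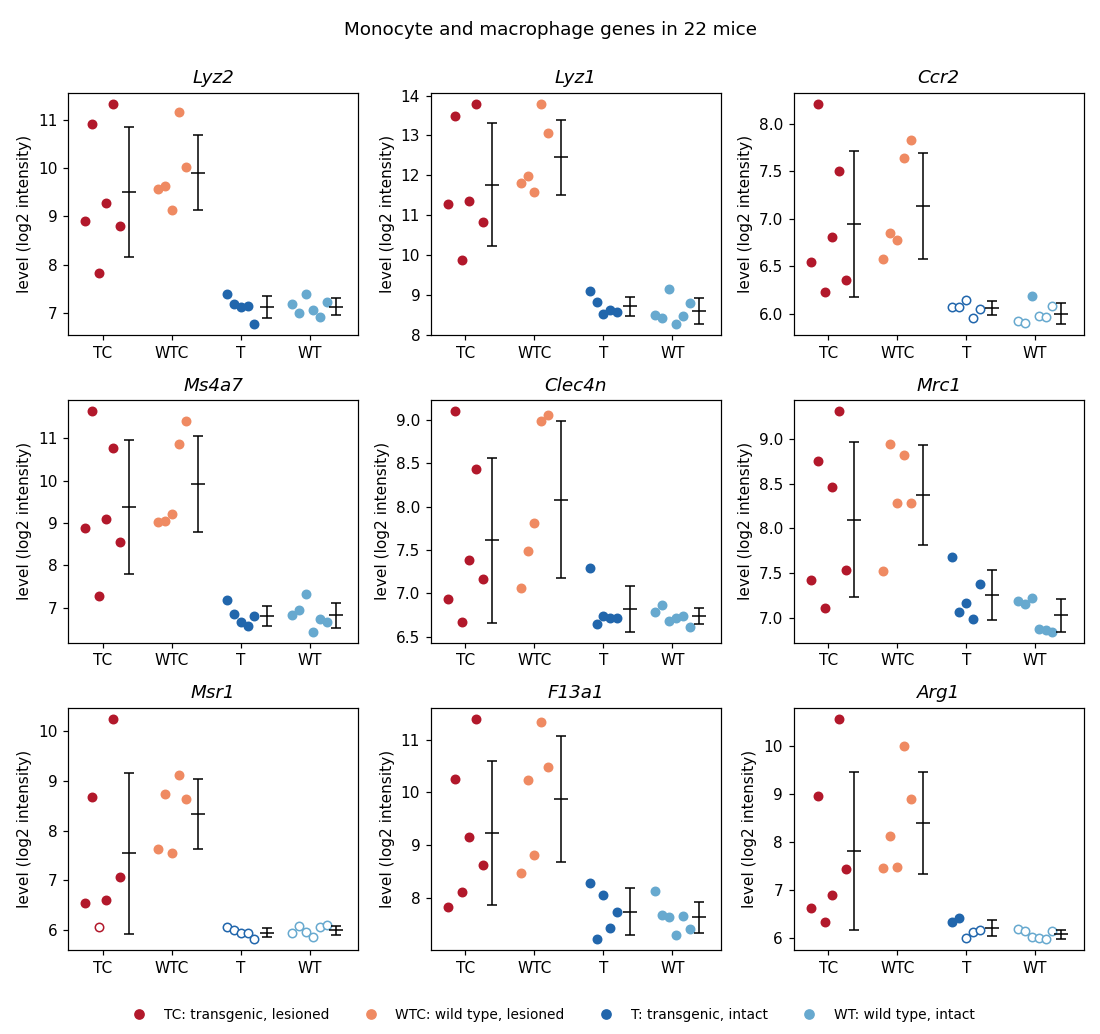
Level (log2 intensity, vertical axes) of the 9 genes in each of the 22 mice by group, with 1 point per mouse and the mean ± SD beside each group; open points are channels not well above background. For all 9 genes the 5 WTC mice lie above the 6 WT mice, as they do for 7.1% of 25988 features. TC and WTC mice spread over a wider range than T and WT mice.

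Lyz1 and Lyz2 encode lysozyme, the enzyme that cuts bacterial cell walls. Lyz2 is the lysozyme of macrophages and granulocytes, and its promoter is the source of the LysM-Cre line. The 2 genes lie next to each other on chromosome 10 and are close copies, so each probe may take up RNA of the other, and their values are not independent. Their promoters in the RefSeq table (GRCm38.p6, 250 bases before to 50 after the start) were alike at 201 of 300 positions (67%) without gaps. They are shown because the levels of Lyz1 and Lyz2 followed each other most closely of all pairs, and the capitals mark the longest run that both share, 86 bases from 50 before to 36 after the start. Lyz1 is given for chr10:117292819-117293118, minus strand, and Lyz2 for chr10:117282223-117282522, minus strand.
Lyz1: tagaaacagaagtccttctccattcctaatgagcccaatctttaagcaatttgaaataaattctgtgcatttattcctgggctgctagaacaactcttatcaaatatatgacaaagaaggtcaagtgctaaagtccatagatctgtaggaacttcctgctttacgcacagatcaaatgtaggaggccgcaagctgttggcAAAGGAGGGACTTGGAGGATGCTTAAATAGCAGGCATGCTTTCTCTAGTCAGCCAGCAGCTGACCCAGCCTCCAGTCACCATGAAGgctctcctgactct
Lyz2: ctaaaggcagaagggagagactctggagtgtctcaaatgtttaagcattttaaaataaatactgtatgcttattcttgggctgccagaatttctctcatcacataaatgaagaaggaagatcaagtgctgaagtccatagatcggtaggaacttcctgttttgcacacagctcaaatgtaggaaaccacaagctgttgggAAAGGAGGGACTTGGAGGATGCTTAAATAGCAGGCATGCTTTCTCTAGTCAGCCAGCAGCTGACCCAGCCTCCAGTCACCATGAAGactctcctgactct

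Lyz2 levels were 9.56, 9.64, 9.14, 11.16 and 10.02 in the 5 WTC mice, against a range of 6.92 to 7.39 with a median of 7.13 in the 6 WT mice. In the 6 TC mice Lyz2 ranged between 7.82 and 11.34 with a median of 9.10, against 7.40, 7.19, 7.12, 7.14 and 6.77 in the 5 T mice. Every lesioned mouse was above every intact mouse, and the lowest lesioned mouse was TC113. Fitted to the array ratios with limma, the log2 ratio of WTC over WT was 2.30 ± 0.60 (SE), 4.93-fold, with an adjusted p of 0.11.

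Lyz1 levels were 11.82, 11.99, 11.57, 13.80 and 13.05 in WTC mice, against 8.27 to 9.16 with a median of 8.49 in WT mice. TC mice ranged between 9.87 and 13.78 with a median of 11.32, against 9.09, 8.83, 8.51, 8.62 and 8.57 in T mice. No lesioned mouse reached down to an intact one, and the limma log2 ratio of WTC over WT was 3.28 ± 0.71 with an adjusted p of 0.096.

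Ccr2 is the receptor for Ccl2 and related chemokines and guides monocytes out of bone marrow and into inflamed tissue. Its levels were 6.57, 6.85, 6.77, 7.64 and 7.83 in WTC mice, against 5.90 to 6.19 with a median of 5.96 in WT mice. In TC mice they ran between 6.23 and 8.21 with a median of 6.67, against 6.07, 6.07, 6.14, 5.95 and 6.05 in T mice. The probe was well above background in all 11 lesioned mice, in 1 WT mouse (WT142) and in no T mouse, so a background-level signal stands on the intact side. Mean levels were also compared directly, with the lowest signal well above background on each array as the floor for T mice. By these, TC mice were 1.79-fold above T mice. Levels keep the dye effect, so this fold is not a lower bound. The limma fit of array ratios, which uses the dim signal as measured and a dye term, gave a smaller TC over T estimate of 1.42-fold (adjusted p = 0.49). The log2 ratio of WTC over WT was 0.80 ± 0.28 (adjusted p = 0.16). Its size depends on the processing: over the alternatives other than left-out arrays it ran from 0.68 to 5.23. For TC over T those alternatives gave 0.20 to 3.97.

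The chemokines and growth factors that call and feed monocytes were listed as 20 genes, of which 18 were measured, with a median log2 ratio of 1.22 for WTC over WT. Over all features that median was 0. None of the 18 passed in the ratio fit, while 13 were higher and 3 lower in a fit to the separate channels described below. That fit called 26.4% of all features for WTC over WT in either direction. Of 25965 features 3695 were higher and 3155 lower. Each list's count of higher or lower genes is to be read beside the count of the same direction. By smallest p they were led by Csf1, the growth factor of macrophages, with a ratio-fit log2 ratio of 1.15 ± 0.23, and by the chemokines Ccl3 (1.83 ± 0.38), Ccl12 (2.84 ± 0.60), a ligand of Ccr2, and Ccl4 (2.45 ± 0.53), each with a limma adjusted p of 0.095. Ccl12 levels ran from 8.47 to 12.31 in TC mice, 10.20 to 12.30 in WTC mice, 7.58 to 8.80 in T mice and 7.00 to 8.56 in WT mice, so the WTC and WT ranges did not overlap.
Of 11 other receptors for such signals 9 were measured, with a median log2 ratio of 1.28, and 8 were higher in the separate-channel fit. Cxcr4, the receptor of Cxcl12, had a ratio-fit log2 ratio of 1.07 ± 0.23 (adjusted p = 0.095), and Csf2rb, a signalling chain of the GM-CSF receptor, one of 1.89 ± 0.51 (adjusted p = 0.12).

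Ms4a7 encodes a membrane protein of the Ms4a family that is found in macrophages and is low in resting microglia. Its levels were 9.02, 9.05, 9.22, 10.86 and 11.40 in WTC mice, against 6.44 to 7.32 with a median of 6.77 in WT mice. In TC mice Ms4a7 ranged between 7.27 and 11.64 with a median of 9.0, against 7.18, 6.85, 6.66, 6.56 and 6.81 in T mice. TC113, at 7.27, was 0.09 above the highest T mouse. The WTC over WT log2 ratio was 2.29 ± 0.57 (limma adjusted p = 0.11).
Of 11 other Ms4a genes 5 were measured, with a median log2 ratio of 0.27 for WTC over WT, and 3 were higher in the separate-channel fit. Ms4a6c and Ms4a6d, also macrophage genes, had ratio-fit log2 ratios of 1.64 ± 0.48 (adjusted p = 0.13) and 1.87 ± 0.63 (adjusted p = 0.16) for WTC over WT.

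Clec4n encodes Dectin-2, a C-type lectin by which myeloid cells sense fungal mannans. Its levels were 7.06, 7.49, 7.81, 8.99 and 9.06 in WTC mice, against 6.61 to 6.87 with a median of 6.73 in WT mice. TC mice ranged between 6.67 and 9.10 with a median of 7.27, against 7.29, 6.65, 6.74, 6.72 and 6.72 in T mice. The TC and T ranges overlapped, since T115 at 7.29 lay above 3 TC mice. The log2 ratio was 0.72 ± 0.33 for WTC over WT (limma adjusted p = 0.26) and 0.09 ± 0.32 for TC over T (adjusted p = 0.95).

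Mrc1 encodes the mannose receptor CD206, carried by border-associated macrophages and by macrophages after IL-4. WTC mice had levels of 7.53, 8.94, 8.28, 8.82 and 8.28, against 6.85 to 7.22 with a median of 7.02 in WT mice. In TC mice Mrc1 lay between 7.11 and 9.31 with a median of 8.0, against 7.68, 7.07, 7.17, 6.99 and 7.38 in T mice. TC107, TC113 and TC129 fell within the range of the T mice. The WTC over WT log2 ratio was 1.15 ± 0.39 (limma adjusted p = 0.16), and the array of WTC116 and WT111 gave 0.34 where that of WTC125 and WT144 gave 2.06.
Cd163, the haemoglobin scavenger receptor of perivascular and meningeal macrophages, was not well above background in any of the 22 channels. Its signal was 5.81 to 6.01 in TC mice, 5.94 to 6.06 in WTC mice, 5.89 to 5.98 in T mice and 5.80 to 5.95 in WT mice, and no fold is given.

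Other genes of border-associated macrophages were not uniform. Of 17 listed 15 were measured, and 13 had a positive log2 ratio for WTC over WT, with a median of 0.53. In the separate-channel fit 8 were higher. Lyve1 and Fcna were dim, being well above background in 1 and 2 of the 5 WTC mice. Stab1, a scavenger receptor, had a ratio-fit log2 ratio of 2.07 ± 0.57 (adjusted p = 0.12), Folr2, a folate receptor, one of 1.69 ± 0.48 (adjusted p = 0.12), and Pf4, a chemokine also held by platelets, one of 1.95 ± 0.66 (adjusted p = 0.16). The mean level of the 15 genes ran from 7.85 to 9.18 in TC mice, 8.10 to 9.04 in WTC mice, 7.63 to 8.06 in T mice and 7.69 to 7.87 in WT mice, and the part of these cells in the levels of Mrc1, Ms4a7 and F13a1 was not tested.

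Msr1 is the class A scavenger receptor, which takes up modified lipoproteins and debris. Its brighter probe had levels of 7.63, 8.74, 7.55, 9.11 and 8.63 in WTC mice, against 5.87 to 6.11 with a median of 6.01 in WT mice. TC mice ranged between 6.07 and 10.25 with a median of 6.84, against 6.06, 6.00, 5.94, 5.94 and 5.82 in T mice. The probe was well above background in all lesioned mice except TC113 and in no intact mouse. From mean levels and the same kind of floor, WTC mice were 4.87-fold above WT mice. TC mice, with the dim TC113 among them, were 2.80-fold above T mice. These folds are not lower bounds either. The limma ratio fit gave smaller estimates, 3.27-fold for WTC over WT (adjusted p = 0.18) and 1.84-fold for TC over T (adjusted p = 0.60), so the size of the difference depends on how it is estimated. A second Msr1 probe gave 6.96 to 7.93 in WTC mice against 5.96 to 6.16 in WT mice, and was dim in the same 12 channels.
Of 23 other scavenger receptors and lectins 18 were measured, with a median log2 ratio of 0.27 for WTC over WT, and 9 were higher in the separate-channel fit. Cd5l, a secreted scavenger protein of macrophages, ran from 6.48 to 12.83 in TC mice and 8.38 to 11.65 in WTC mice, while its T mice lay at 5.94 to 6.25 and its WT mice at 5.99 to 6.10. The ratio-fit log2 ratio of Cd5l was 2.94 ± 0.81 (adjusted p = 0.12).

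F13a1 is the catalytic chain of clotting factor XIII, which crosslinks fibrin and is made by platelets, monocytes and macrophages. Levels in WTC mice were 8.47, 10.23, 8.82, 11.33 and 10.48, against 7.29 to 8.13 with a median of 7.64 in WT mice. TC mice ranged between 7.83 and 11.40 with a median of 8.89, against 8.28, 7.22, 8.05, 7.43 and 7.73 in T mice. TC107 and TC113 lay within the T range. The WTC over WT log2 ratio was 1.79 ± 0.64 (limma adjusted p = 0.18). A second F13a1 probe was well above background in 1 of the 22 channels only, that of WTC135, and its log2 ratio was 0.04 ± 0.06.
The table holds 2 promoters for F13a1. One of them, chr13:37049164-37049463 on the minus strand, was the only one of 9 promoters of 7 of the genes with a match to the PU.1 type motif GAGGAAGT, in capitals here, where PU.1 is the myeloid master factor. On both strands 3.20% of all 32851 promoters in the table hold these letters.
F13a1: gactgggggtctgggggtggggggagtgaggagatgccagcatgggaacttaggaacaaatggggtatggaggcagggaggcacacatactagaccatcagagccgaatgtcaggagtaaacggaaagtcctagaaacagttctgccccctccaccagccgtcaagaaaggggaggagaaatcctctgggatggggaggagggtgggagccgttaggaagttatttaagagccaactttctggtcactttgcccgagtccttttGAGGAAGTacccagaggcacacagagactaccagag
None of the 9 promoters matched TTGCGCAA (C/EBP type, in 0.183% of all promoters), TGACGTCA (the CREB site, in 1.79%) or TTCNNNGAA (STAT type, in 8.30%), which says only that these letters are not in these windows.
Among 20 other genes of clotting and fibrinolysis 16 were measured, with a median log2 ratio of 0.69 for WTC over WT, and 10 were higher in the separate-channel fit. Anxa2 and S100a10, which together bind plasminogen activator at the cell surface, had ratio-fit log2 ratios of 2.19 ± 0.39 (adjusted p = 0.081) and 1.15 ± 0.22 (adjusted p = 0.095).

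Arg1 cleaves arginine to ornithine and is a gene of alternatively activated macrophages. WTC mice had levels of 7.46, 8.13, 7.49, 10 and 8.90, against 5.98 to 6.19 with a median of 6.08 in WT mice, none of them well above background. TC mice lay between 6.33 and 10.58 with a median of 7.18, against 6.33, 6.41, 6.00, 6.13 and 6.16 in T mice. Among T mice T115 and T132 were well above background, and TC113 at 6.33 did not exceed them. From mean levels and the same kind of floor WTC mice were 4.96-fold above WT mice, which is not a lower bound. The limma ratio fit gave 2.65-fold with an adjusted p of 0.30. No fold is given for T over WT, since 3 of the 5 T mice were not well above background either.
Of 15 other genes of arginine and polyamine metabolism, all measured, the median WTC over WT log2 ratio was 0.09, with 4 higher and 1 lower in the separate-channel fit, a share near the 26.4% of all features. Sat1, which acetylates polyamines, was at 1.02 ± 0.23 (ratio-fit adjusted p = 0.097), and Odc1, which makes putrescine, at 0.64 ± 0.18 (adjusted p = 0.12), while Arg2, the mitochondrial arginase, was at -0.54 ± 0.26 (adjusted p = 0.29).
Of 19 other alternative activation genes 14 were measured, with a median of 0.05, 6 higher and 2 lower in the separate-channel fit. Ccl17, a chemokine that IL-4 induces, had a ratio-fit log2 ratio of -0.98 ± 0.23 (adjusted p = 0.10) and Il4ra, the IL-4 receptor chain, one of 0.99 ± 0.32 (adjusted p = 0.15). Of 16 classical activation genes 12 were measured, with a median of 0.49 and 7 higher in the separate-channel fit, among them Cd86, a costimulatory receptor, at 1.27 ± 0.32 in the ratio fit (adjusted p = 0.11).

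The question of lesion against intact cortex in wild-type mice was tested in 2 ways. The ratio fit used limma on the 11 array ratios with a dye term and 7 residual degrees of freedom, and adjusted p by Benjamini-Hochberg over 26082 features. It called 6 features (0.023%), none of them among the 9 genes, whose log2 ratios of WTC over WT ran from 0.72 to 3.28 with a median of 1.71 against 0 for all features. At an unadjusted p under 0.05 stood 7 of the 9 genes and 5111 features. The separate-channel fit took each mouse's channel as a value of its own, with an intraspot correlation of 0.322, and called 6850 of 25965 features (26.4%), 3695 up and 3155 down.
All 9 genes rose in the separate-channel fit, by 1.08 to 3.77 on the log2 scale with adjusted p between 0.00017 and 0.016. All 5 WTC mice lay above all 6 WT mice for the 6 genes measured in every channel and for the 3 that the filter favoured, and for 7.10% of 25988 features. In bulk tissue, more cells of a type and more RNA per cell cannot be told apart.
Slide 1 alone, where WTC116, WTC125 and all WT mice lay, gave a median log2 ratio of 1.70 in the ratio fit with 6 of 9 genes and 2160 features called, and slide as a term of the separate-channel fit left 8 genes and 3450 features, with Clec4n at an adjusted p of 0.076. In the ratio fit 4 genes and 1437 features passed without the array of TC113 and T151, and 6 genes and 1583 features without that of TC124 and WTC126. Plain background subtraction moved the median of the 9 genes to 3.17.

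**Figure D2:**
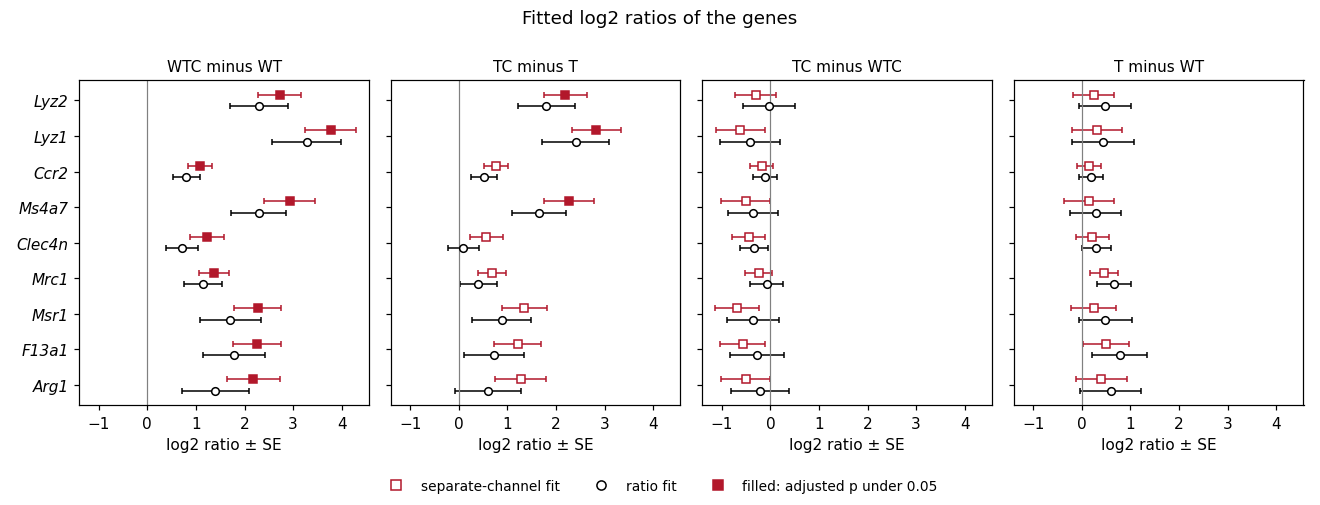
Fitted log2 ratios ± SE (horizontal axes) of the 9 genes in 4 comparisons, in the separate-channel fit (squares) and the ratio fit (circles), filled where the adjusted p was under 0.05. All 9 genes are filled for WTC minus WT and 3 for TC minus T in the separate-channel fit, and no gene is filled in the ratio fit.

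Lesioned and intact cortex were compared in the same way in transgenic mice. In the ratio fit, TC over T log2 ratios of the 9 genes ran from 0.09 to 2.41 with a median of 0.73, against 0.01 for all features. Plain background subtraction moved that median to 2.43, and groups by the other label field turned Clec4n (-0.44), Msr1 (-0.35), F13a1 (-0.56) and Arg1 (-0.80) negative. None of the 9 was called, and no feature at all (0%), while 3 of the 9 genes and 3108 features had an unadjusted p under 0.05. The largest were Lyz1 at 2.41 ± 0.69 (adjusted p = 0.30), Lyz2 at 1.80 ± 0.59 (adjusted p = 0.32) and Ms4a7 at 1.65 ± 0.56 (adjusted p = 0.33).
The separate-channel fit also called these genes, beside 7.41% of features in either direction, 1222 higher and 701 lower. Lyz1 was at 2.83 ± 0.51 (adjusted p = 0.0042), Lyz2 at 2.19 ± 0.44 (adjusted p = 0.0078) and Ms4a7 at 2.27 ± 0.52 (adjusted p = 0.016). These were also the 3 genes under 0.05 in the authors' deposited table, with log fold changes of 2.62 (adjusted p = 0.0068), 2.25 (adjusted p = 0.0098) and 2.54 (adjusted p = 0.026), where 1.97% of its rows were under 0.05.
Every TC mouse was above every T mouse for 5 of the 9 genes, Lyz2, Lyz1, Ccr2, Ms4a7 and Msr1, and for 2.83% of features, but for 1 gene only once the dye term was subtracted from the levels. For Msr1 this order has no weight, since TC113 at 6.07 and T115 at 6.06 were both not well above background. For Ccr2 no T mouse was well above background, and TC113 at 6.23 lay close to T133 at 6.14. Ccr2, Msr1 and Arg1 passed the filter through the lesioned mice, so the filter favoured their separation, and the shares of all features are no fair measure for them. Without TC113 every TC mouse was above every T mouse for 6 genes, Arg1 being the other, and for 6.34% of features. The separate-channel fit then called 8 genes, all but Clec4n (adjusted p = 0.11), beside 3254 features, where all mice gave 1923. TC113 was the lowest lesioned mouse for all of the genes but F13a1, and leaving it out raised the mean TC level of each gene. The count of genes without overlap could then only rise or stay. The calls of the refit were not bound to rise, but they rest on this choice of mouse. TC113 was 0.69 above the mean of the T mice for Lyz2 and 1.15 for Lyz1, but -0.15 for Mrc1 and for Clec4n. In that fit 7 monocyte genes of 20 were higher and 1 lower, 11 macrophage genes of 23 were higher, and of 18 ligands 8 were higher and 1 lower, with all TC mice kept. On slide 2 alone the ratio-fit median TC over T log2 ratio was 0.40, from 2 T mice, and on slide 1 alone 1.24, from 1 TC mouse.

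Between lesioned mice of the 2 genotypes, no difference was detected in the 9 genes. The log2 ratios of TC over WTC lay between -0.42 and -0.03 in the ratio fit with a median of -0.28, against -0.02 for all features, and none was called among the genes or the features (0%). No gene had an unadjusted p under 0.05, as 3858 features did. The SEs of 0.24 to 0.62 leave a wide interval: for Lyz1 the ratio was -0.42 with a 95% interval from -1.83 to 0.98, and for Msr1 -0.36 from -1.58 to 0.87.
The separate-channel fit gave -0.68 to -0.18 with adjusted p between 0.44 and 0.73, and called 0.139% of features. Of the ligand list Mif, a cytokine that holds macrophages in place, was higher in that fit, at 0.50 ± 0.08 (adjusted p = 0.015), and no other gene of the lists described here was called.
Single arrays went opposite ways. The array of TC124 and WTC126 gave a log2 ratio of 3.08 for Arg1, 2.70 for Msr1 and 2.58 for F13a1, whereas the array of TC129 and WTC135 gave -2.55 for Arg1, -2.03 for Msr1 and -2.70 for F13a1. The array of TC110 and WTC148 gave 0.07 for Arg1, 0.05 for Msr1 and -0.24 for F13a1, and ran up to 0.89 for Lyz2. Without the array of TC129 and WTC135 all 9 fitted ratios turned positive, with a median of 0.29, and without that of TC124 and WTC126 the median was -0.92.
For the probes tested, the authors' deposited table gives TC against WTC at -1.82 (adjusted p = 0.023) for Msr1 and -1.47 (adjusted p = 0.045) for F13a1. Both were under 0.05, as were 11.2% of its rows. Their second probes were not, with Msr1 at -1.10 (adjusted p = 0.078) and F13a1 at -0.28 (adjusted p = 0.18). In the ratio fit the second Msr1 probe was at 0.01 ± 0.42. The deposited decreases are larger than those of the ratio fit, but so are the deposited rises for WTC over WT. There Msr1 was at 3.41, against 1.71, and Arg1 at 3.32, against 1.40. The other genes were not under 0.05 in the authors' deposited table, with log fold changes from -1.59 for Arg1 (adjusted p = 0.062) to -0.15 for Cd163 (adjusted p = 0.39). With groups taken from the other label field the ratio fit gave -0.72 for Msr1 and -0.70 for F13a1, and without the 3 arrays whose labels disagree -1.06 and -0.96, none of them called.

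Without a lesion the transgene made no detectable difference in these genes. T over WT log2 ratios ran from 0.18 to 0.78 with a median of 0.47 against 0 for all features, no gene had an unadjusted p under 0.05 and none of the genes or features was called (0%). F13a1 was highest at 0.78 (95% interval from -0.51 to 2.06), followed by Mrc1 at 0.67 (from -0.12 to 1.45). All 9 ratios were positive, but the dye term, which was negative for all 9 genes at -0.79 to -0.24, adds to them: without it the median was 0.29. On slide 1 alone the median was 0.03, and Lyz1 and Ms4a7 were at -0.07 and -0.06.
The difference of the 2 lesion ratios, TC minus T less WTC minus WT, was negative for all 9 genes, from -1.06 for F13a1 to -0.29 for Ccr2, with adjusted p between 0.81 and 0.88. No gene and no feature was called (0%), so a genotype difference in the lesion response was not shown, and the F13a1 interval ran from -2.69 to 0.57.

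The lesioned mice differed widely among themselves, and the 9 genes ranked them much alike. TC113 had the lowest level of the 11 lesioned mice for 8 of the 9 genes, and TC107 for F13a1. At the other end TC124 had the highest level of Lyz2, Mrc1, Msr1, F13a1 and Arg1, TC110 that of Ccr2, Ms4a7 and Clec4n, and WTC135 that of Lyz1. Averaged over the 9 genes the levels were 10.37 in TC124, 10.19 in WTC135, 10 in TC110 and 9.74 in WTC148, against 7.27 in TC113. Those 4 high mice were all on slide 2, as was TC113, and all but WTC148 were labelled with Cy3, as was TC113.
The intact mice ran only between 6.72 in WT144 and 7.26 in T115 on the same average, so TC113 stood at the top of the intact range. By pan-reactive astrocyte genes TC113 stood apart from the intact mice, with a mean level of 10.01 where T mice had 8.89 to 9.38 and WT mice 8.65 to 9.31. Its excitatory neuron genes averaged 8.86, where no other TC mouse was below 11.34 and no WTC mouse below 11.18, and the part of this in its levels was not tested. T132, which the other label field names as lesioned, stood at 6.92, within that range, and TC124, which it names as intact, was the highest of all.

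**Figure D3:**
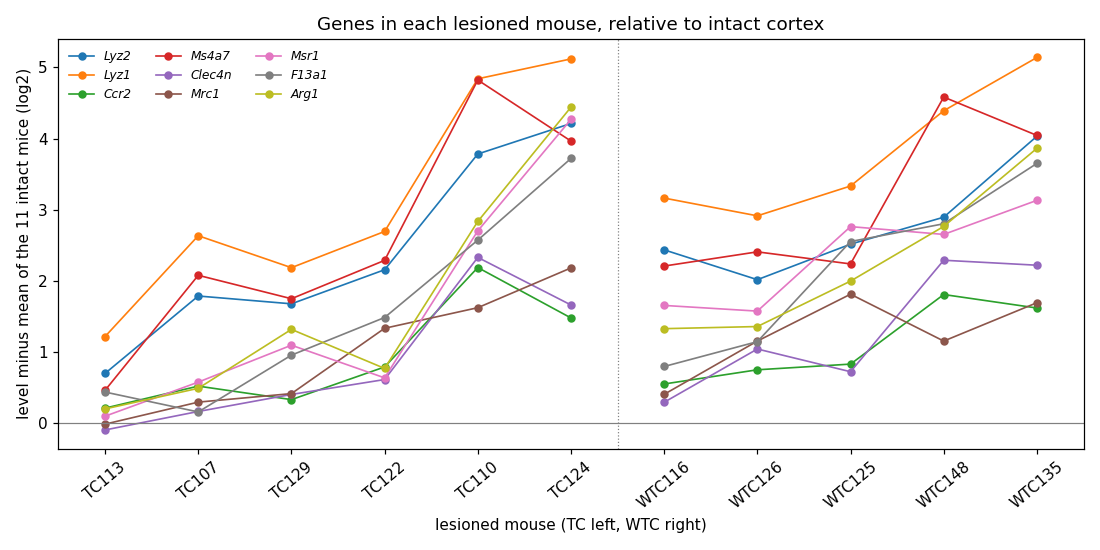
Level of each of the 9 genes in the 11 lesioned mice minus its mean in the 11 intact mice (log2, vertical axis), with TC mice on the left and WTC mice on the right, each ordered by the mean of the genes. TC113 lies near 0 for most genes, and the lines of Ccr2, Ms4a7 and Clec4n peak in TC110 and WTC148 while those of Msr1, F13a1 and Arg1 peak in TC124 and WTC135. Levels keep the dye effect, and WTC135 was in Cy3 but WTC148 in Cy5.

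The highest mice did not carry the genes in the same proportions. From TC110 to TC124, both lesioned transgenic mice on slide 2 in Cy3, Msr1 was 1.57 higher, Arg1 1.61 higher and F13a1 1.15 higher, while Ms4a7, Ccr2 and Clec4n were at -0.87, -0.71 and -0.67. The mice WTC135 and WTC148 showed the same order within wild type, with Arg1 at 10 and 8.90 and Ms4a7 at 10.86 and 11.40. They differ in dye, however, with WTC135 in Cy3 and WTC148 in Cy5. Msr1 was at 9.11 and 8.63 and F13a1 at 11.33 and 10.48, where the dye terms were -0.65 for Msr1 and Arg1 and -0.79 for F13a1. Mouse and dye cannot be told apart in this wild-type pair. The split between these genes was noticed in the data and rests on single mice, so it has no test.
Across the 22 mice, which share slides and lesion state, Pearson correlations between the genes were 0.84 to 0.99 over 36 pairs. With group means subtracted they were 0.68 to 0.98, where Lyz1 and Lyz2 stood at 0.98. These are descriptions with no p.
The genes most like the mean of the 9 over the 22 mice, among 16003 compared, were Clec4d (r = 0.994), Gpr65 (0.992), Wfdc17 (0.991), Lcp1 (0.990), Ms4a6c (0.989), Sbno2 (0.989), Alox5ap (0.987) and Rab3il1 (0.987). With group means subtracted they were Wfdc17 (0.988), Clec4d (0.982), Gpr65 (0.976), Lcp1 (0.975), Batf (0.974), Sbno2 (0.972), Ms4a6c (0.971) and Chil3 (0.970).

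Genes of the same and of other cell types were set beside these levels. Of 22 other monocyte genes 20 were measured, with a median WTC over WT log2 ratio of 1.09, and 15 were higher in the separate-channel fit. S100a6, a calcium-binding protein, was at 2.77 ± 0.54 (ratio-fit adjusted p = 0.095) and Cd44, the hyaluronan receptor, at 2.09 ± 0.46 (adjusted p = 0.097). Cd44 is also on the list of pan-reactive astrocyte genes below, so it does not stand for monocytes alone.
Of 25 other macrophage genes 23 were measured, with a median of 1.29, and 16 were higher in the separate-channel fit. Lgals3, the lectin galectin-3, was at 3.87 ± 0.61 (ratio-fit adjusted p = 0.057), and Gpnmb, a glycoprotein of lipid-laden macrophages, at 3.34 ± 0.64 (adjusted p = 0.094).
All 16 homeostatic microglia genes listed were measured, with a median of 0.61, and 8 were higher in the separate-channel fit. Fcrls, a receptor-like gene of mouse microglia, was at 2.18 ± 0.57 (ratio-fit adjusted p = 0.11). Their mean level ran from 11.03 to 11.97 in TC mice, 11.55 to 12.03 in WTC mice, 10.76 to 11.10 in T mice and 10.75 to 11.20 in WT mice, and the part of microglia in the levels of the 9 genes was not tested.
Lysozyme and Clec4n are also made by neutrophils. Of 20 neutrophil genes 13 were measured, with a median of 0.07, 5 higher and 1 lower in the separate-channel fit. The largest were Lcn2 at 2.97 ± 0.53 (ratio-fit adjusted p = 0.081), which reactive astrocytes also make, S100a9 at 2.56 ± 0.61 (adjusted p = 0.10) and S100a8 at 1.93 ± 0.44 (adjusted p = 0.098). Among granule genes, named here after their values were seen, Mpo, Elane and Camp were at 0.04 ± 0.08, 0.07 ± 0.13 and 0.07 ± 0.12 in the ratio fit and Mmp8 at 0.37 ± 0.27, and none of the 4 was called there. Mmp8 rose in the separate-channel fit, by 0.67 ± 0.23 (adjusted p = 0.037), and was well above background in 3 of 6 TC mice and 5 of 5 WTC mice, and in none of the 5 T or 6 WT mice. The part of neutrophils in the levels of the lysozymes and Clec4n was not tested.
All 13 pan-reactive astrocyte genes listed were measured, with a median WTC over WT log2 ratio of 2.28, 1 called in the ratio fit and 12 higher in the separate-channel fit. The one called was Timp1, a protease inhibitor, at 3.61 ± 0.42 (adjusted p = 0.046), and Gfap, the astrocyte filament protein, was at 3.47 ± 0.46 (adjusted p = 0.057). The 8 excitatory neuron genes had a median of -0.04 for WTC over WT and of -0.99 for TC over T, where all 8 were negative and none was called in either fit. Single mice stood apart in both comparisons. By mean level TC113 was at 8.86 against 11.34 to 12.33 in the other TC mice. The intact mouse WT111 was at 10.26 against 11.74 to 12.32 in the other WT mice. The part of these mice in the 2 medians was not tested.
Genes of tissue next to the cortex also varied between mice. Those of choroid plexus had a median WTC over WT log2 ratio of 2.12 over 9 genes, with mean levels from 8.34 to 12.99 in TC mice, 9.32 to 13.38 in WTC mice, 8.74 to 10.46 in T mice and 8.43 to 13.27 in WT mice, and none of the 9 was called in either fit. Genes of striatal neurons had a median of -0.79, and red cell genes one of -0.83, with 5 of 6 lower in the separate-channel fit. For TC over WTC the ratio-fit median was -2.01 for choroid plexus and -1.91 for striatal neuron genes, with all 9 of each negative. For red cell genes it was 0.03, and no gene of these 3 lists was called for TC over WTC in either fit. Their part in the levels of the 9 genes was not tested.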

How the data were processed

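RNA of 22 mice was measured on 11 Agilent arrays of 2 colours. Per the file headers, Agilent Feature Extraction 10.7.3.1 gave the deposited spot intensity (median signal and local background of each dye), the flags and a log10 ratio per spot. The authors' deposited table holds log2 fold changes and adjusted p-value columns. It does not state its groups, and its column of p for WTC against WT, with 766 cells above 1, was not used. No source used here names the arrays' genome build.

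From the intensity values, background was corrected with normexp (offset 50), dyes were normalised by loess within each array, and mean intensity was made alike between arrays (Aquantile) for levels, with limma 3.58.1 in R 4.3.3. Outlier spots were left out and spots of a probe averaged. The filter kept 35552 of 55681 probes, those flagged well above background in 5 or more of the 22 channels. Probes were named through transcript identifiers in the RefSeq gene table, which gave 26762 probes 1 symbol, and the brightest probe stood for a gene, leaving 26082 features. Ratios were fitted for the 4 groups with a dye term, and p-values adjusted by Benjamini-Hochberg at 0.05. Per-mouse levels keep the dye effect. This was chosen after seeing the data: for Msr1, subtraction raised the SD in WT mice (0.34, against 0.09 as measured) but lowered it in TC mice (1.44, against 1.61) and WTC mice (0.48, against 0.70). Fits were also run on simulated data, which had no slide effect and less noise than the spread between mice here (pooled SD of the genes' mean level 0.76). That run checks the code and cannot show how the fits behave on these data.

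The 10 genes and all lists were chosen with earlier results of these data known. Described are all 10 genes, genes of each list with the smallest p for WTC over WT, and the 8 genes most alike by correlation. Groups come from array titles. Alternatives covered background, normalisation, filters, probes, dye, slide, weights, labels and left-out arrays.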

Additional observations from a re-analysis of the deposited data

Results flagged for a closer look

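One level stood apart from the others of its group by Dixon's test at the 95% level, among 36 sets examined (9 genes in 4 groups). This was Clec4n in the T mouse T115, at 7.29, where the next T mouse was at 6.74 and the lowest at 6.65. Chance flags about 1 in 20 such sets. T115 was also the highest T mouse for Lyz2, Lyz1, Ms4a7, Mrc1, Msr1 and F13a1. In the fit to separate channels without T115, the median T over WT log2 ratio of the 9 genes was 0.16, against 0.24 in the separate-channel fit of all mice.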

How the results depend on the processing

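For WTC over WT all 9 genes stayed positive under every alternative run, and 73 of 276 gene values went past the threshold. Features called, 6 as reported, came to 0 with plain background subtraction, with median centring or with groups by the other label field, to 1 with the Feature Extraction log ratio, no filter, the mean of all probes or slide as a random block, to 14 with quantile normalization and to 50 with probes above background in all 22 channels. Array weights called 5356 features and 8 of the 9 genes. The separate-channel fit called 6850 and 9, with a slide term 3450 and 8, without TC113 8391 and 9, without T115 6637 and 9, and with array as a random block 6918 and 9. Leaving out the 3 arrays with conflicting labels gave 1764 and 5, and slide 1 alone 2160 and 6. The median of the genes, 1.71, was 3.17 with plain subtraction and 3.13 with the Feature Extraction log ratio.

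For TC over T, where the ratio fit called nothing, array weights called 1903 features and 3 genes, and the separate-channel fit 1923 and 3, with a slide term 903 and 3, without T115 1928 and 3, with an array block 1913 and 3, and without TC113 3254 and 8. The median, 0.73, was 2.43 with plain subtraction, 2.31 with the Feature Extraction log ratio and 1.74 in the separate-channel fit without TC113. With groups by the other label field Clec4n was at -0.44, Msr1 at -0.35, F13a1 at -0.56 and Arg1 at -0.80, and without the 3 arrays Clec4n was at -0.13. With the dye term subtracted from the levels, 1 gene, not 5, had every TC mouse above every T mouse.

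For TC over WTC features called, 0 as reported, were 627 with array weights, 36 in the separate-channel fit, 92 with a slide term, 48 without TC113, 24 without T115, 37 with an array block and 3 by the other label field. Lyz2 turned positive with plain subtraction (0.04), quantile normalization (0.09), median centring (0.13), the Feature Extraction log ratio (0.06), no dye term (0.01), slide as a block (0.08) and the separate-channel fit without TC113 (0.01). Msr1 did with plain subtraction (0.12), Ccr2 with quantile normalization (0.01), and Mrc1 with quantile normalization (0.02), median centring (0.02) and the log ratio (0.00). On slide 1 Ccr2 was at 0.23, Clec4n at 0.04, Mrc1 at 0.47 and F13a1 at 0.53. For T over WT, array weights gave Lyz1 -0.03 and Ms4a7 -0.13, a slide term Ms4a7 -0.02, and slide 1 Lyz1 -0.07 and Ms4a7 -0.06. For the difference of lesion ratios, 2 features were called in the separate-channel fit without TC113.

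Leaving out each array in turn, WTC over WT called 0 to 1583 features and 0 to 6 genes, and TC over T called 0 to 6 features, with Clec4n from -0.14 to 0.29. TC over WTC called 0 to 2 features, with Lyz2 from -0.66 to 0.72, Lyz1 from -1.19 to 0.40, Ccr2 from -0.33 to 0.26, Ms4a7 from -0.92 to 0.29, Clec4n from -0.58 to 0.17, Mrc1 from -0.35 to 0.24, Msr1 from -1.21 to 0.05, F13a1 from -1.02 to 0.37 and Arg1 from -1.16 to 0.46. The difference of lesion ratios ran from -0.95 to 0.21 for Lyz2 and from -0.45 to 0.06 for Ccr2. The cause of these shifts was not tested. Fits within a slide, the array block and the checks on per-mouse levels were chosen after seeing the data. Dim signal limits Ccr2, Msr1 and Arg1 in intact mice and Cd163 in all. The ratio fit and the array block pair mice that shared an array. Beyond the array, no paired analysis was possible because the labels give the mice no shared replicate numbers.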
